A study of Mus musculus with 15 samples.

Results

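Motor neurons instruct muscle to build and keep the neuromuscular junction, and 10 genes that take part in this exchange were followed across every library of the series. They were taken by symbol as genes for ligands that motor neurons supply to muscle, their partners and the transcription factors linked to them: Agrn, Lrp4, Nrg1, Etv1, Etv4, Etv5, Fgfbp1, Vegfa, Cntn1 and Slit2. All 10 symbols were present among the 36144 genes listed, and 9 of the 10 (Fgfbp1 was the exception) reached 1 TPM in at least 3 libraries, as did 15425 genes in all. TPM gives the abundance of a transcript as a share of its library, corrected for transcript length, so that levels of different genes can be compared.

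The study measured poly(A) RNA of motor neurons from lumbar segments L1 to L3 of FVB mice at postnatal day 6, labelled with the retrograde tracer cholera toxin subunit B and cut out by laser-capture microdissection. There were 15 libraries, 3 biological replicates in each of 5 groups, from equal proportions of males and females. Every animal carried the human SMN2 and SMNΔ7 transgenes. WT animals were Smn+/+ littermates given vehicle, and SMA animals were Smn-/- and given vehicle, which models spinal muscular atrophy. The other 3 groups were Smn-/- animals injected intraperitoneally each day from postnatal day 0. SMA+MW150 received the p38α MAPK inhibitor MW150 at 5 mg/kg, SMA+Pifithrin-alpha the p53 inhibitor Pifithrin-α at 2.2 mg/kg, and SMA+SMN-C3 the SMN2 splicing modifier SMN-C3 at 3 mg/kg. How many cells or animals went into a library is not given in the sources used here. Libraries are named by group and replicate, as in WT 1.

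Agrin, the product of Agrn, is released by the motor nerve and binds LRP4 on the muscle surface, which activates the kinase MuSK and gathers acetylcholine receptors under the nerve terminal. Only forms of agrin that carry the small inserts of the Z site do this efficiently, and neurons are the main source of those forms. Neuregulin 1 on the axon acts on ERBB receptors of Schwann cells and muscle, whereas SLIT2, VEGF-A and FGFBP1 are secreted proteins that act on axons, vessels or the synapse.

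Because the Z inserts decide what agrin can do, the sequence around that site is shown for 3 annotated Agrn transcripts. Each line gives the spliced RNA sense sequence as DNA, 5′ to 3′, with 24 bases of the exons on either side in lower case and bases from the Z exons in capitals. The window is chr4:156167483-156168756 on the minus strand of GRCm38, inside Agrn (chr4:156165290-156197488), with the introns left out.
Agrn-203: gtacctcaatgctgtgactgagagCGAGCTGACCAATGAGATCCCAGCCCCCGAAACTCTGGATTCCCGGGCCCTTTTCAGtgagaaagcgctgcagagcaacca
Agrn-205: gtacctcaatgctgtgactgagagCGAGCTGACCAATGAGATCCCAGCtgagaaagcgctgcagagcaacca
Agrn-206: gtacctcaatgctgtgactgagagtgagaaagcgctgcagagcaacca
The 24-base exon (chr4:156168546-156168569) is in Agrn-203 and Agrn-205, and the 33-base exon (chr4:156167777-156167809) in Agrn-203 alone. A second insert, the 12-base exon of the Y site (chr4:156169546-156169557), adds to the binding of heparin and is shown because it sets the same coding transcripts apart.
Agrn-203: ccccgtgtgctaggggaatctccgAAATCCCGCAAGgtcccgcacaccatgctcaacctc
Agrn-206: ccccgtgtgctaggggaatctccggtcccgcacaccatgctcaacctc
Agrn-203 thus holds both Z exons and the Y exon, and Agrn-206 holds none of the 3.

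The libraries themselves set some limits on every result that follows. Mouse Smn1, which is disrupted in Smn-/- animals, was at 8.97 to 23.3 TPM in WT against 0 to 1.498 TPM in the other 12 libraries, as the labels say. All 9 motor neuron markers were detected in all 15 libraries, with a summed level of 1285 to 2561 TPM in WT against 2214 to 2746 TPM in SMA. The sum was 2334 to 2907 TPM with MW150, 1012 to 2821 with Pifithrin-α and 2369 to 2952 with SMN-C3. Of the 9 markers, 1 was higher (Slc18a3, 464 against 266 TPM) and 1 lower (Slc5a7, 110 against 197 TPM) in SMA than in WT without overlap. Of all tested genes, 14.5% were higher and 3.81% lower in this way. WT 1 and SMA+Pifithrin-alpha 3 stood apart by the mitochondrially encoded share of their TPM, at 21.9% and 20.4% against 3.76% to 12.6% in the other 13. Some results that rest on them are also given without them, and others only with them. WT 1 also had the highest share of TPM in transcripts annotated with a retained intron, at 6.20% against 3.15% to 5.34%. TPM values carry no read counts, so sequencing depth is not stated. In these bulk samples, fewer cells of a type and less RNA per cell cannot be told apart.

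Among the 10 genes, 2 were higher and 1 lower in all 3 SMA libraries than in all 3 WT libraries: the transcription factors Etv4 and Etv5 were higher, and the ligand Slit2 was lower. Agrn, Nrg1, Etv1, Vegfa and Cntn1 had lower means in SMA with ranges that overlapped those of WT. By limma on log2(TPM+1), 0 of the 9 genes tested passed a Benjamini-Hochberg adjusted p of 0.05 between SMA and WT, where 0.363% of all tested genes did. At an unadjusted p of 0.05, 2 of the 9 passed (Etv5 and Slit2), as did 13.5% of all tested genes, and with array weights, which give noisier libraries less influence, the count of adjusted calls was again 0. Of all tested genes, 14.5% were higher and 3.81% lower without overlap in SMA. Leaving out WT 1 kept the same 2 and 1 genes apart, against 18% and 6.92% of all genes. The median change of the 9 genes was -0.40 on the log2 scale, whereas that of all genes tested was 0.24. This upward shift of all genes fell to 0.04 when libraries were rescaled by the median of ratios, and the median of the 9 genes was then -0.65. Neither median of the 9 genes is given without WT 1. That library was the highest of WT for Slit2, Nrg1, Cntn1, Etv1 and Vegfa, and the lowest for Etv4 and Etv5.

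**Figure D1:**
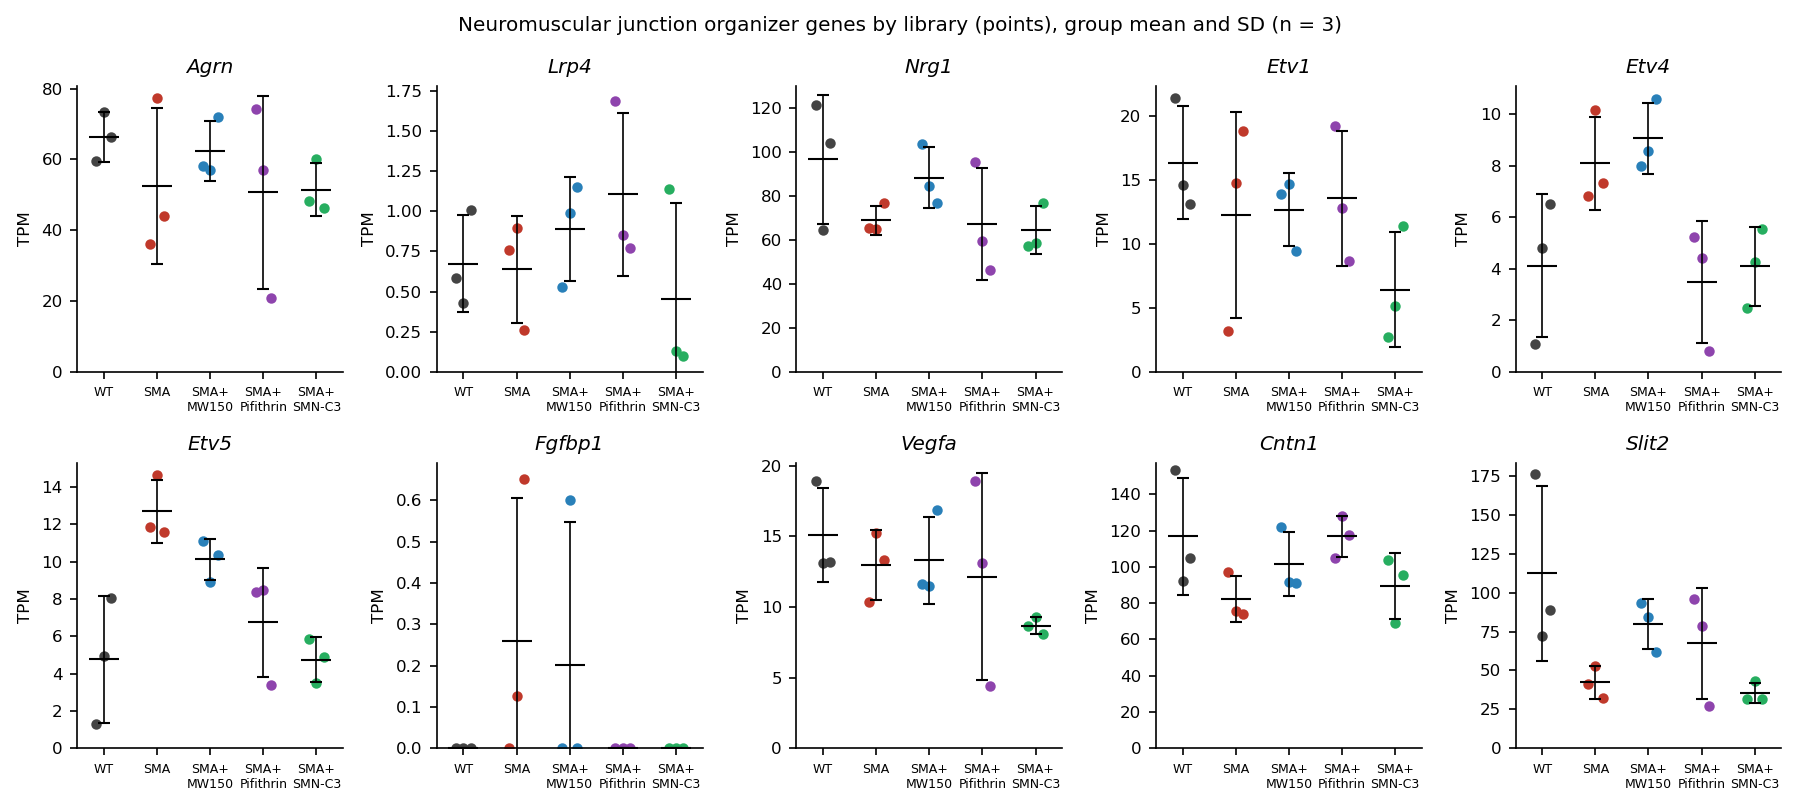
Level in TPM (vertical axis, linear, starting at 0) of each of the 10 genes in the 5 groups (horizontal axis); points are libraries, the wide bar is the group mean and the whiskers are the SD (n = 3), which stop at 0 where they would go below it. Etv4 and Etv5 sit higher and Slit2 lower in SMA than in WT without overlap, and Agrn reaches both 77.4 and 36.0 TPM within SMA.

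Total Agrn was well expressed in every library. Its level was 59.5, 73.4 and 66.2 TPM in WT 1 to 3 and 36.0, 77.4 and 44.0 TPM in SMA 1 to 3. SMA 2 lay above every WT library and the other 2 SMA libraries below all of them, so that the groups overlapped. The mean was 52.5 ± 21.9 TPM in SMA and 66.4 ± 6.98 TPM in WT (SD, n = 3), a log2 difference of -0.40 ± 0.38 (SE) with a 95% interval of -1.20 to 0.39 and an adjusted p of 0.60. It was -0.18 without SMA 1 and -0.72 without SMA 2. The deposited values thus gave no call for total Agrn, and the interval holds values on both sides of 0. Agrn was at 58.1, 57.1 and 72.1 TPM with MW150, at 74.2, 56.9 and 20.8 TPM with Pifithrin-α, and at 48.1, 60.1 and 46.3 TPM with SMN-C3. All 3 treated groups overlapped with SMA. The low value with Pifithrin-α belongs to the library with the mitochondrial share of 20.4%.

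The transcript tables divide this total very unevenly. Agrn-205, a 2071-base transcript annotated as retained intron that covers only the 3′ end of the gene, carried 59.0 ± 7.08 TPM in WT against 45.4 ± 20.9 TPM in SMA. The 7262-base coding transcript Agrn-203, with the Z and Y inserts, was at 4.93 ± 2.12 TPM in WT against 4.03 ± 1.47 TPM in SMA, and the 6891-base coding transcript Agrn-206, without them, at 0.898 ± 0.780 and 1.94 ± 0.169 TPM (n = 3 each). All 3 share exons, so the division between them is an estimate of the quantification program. Over all Agrn transcripts, those with a Z exon made up 93.6%, 98.2% and 96.7% of the TPM in WT 1 to 3 and 93.5%, 94.0% and 94.96% in SMA 1 to 3. These ranges overlapped (exact two-sided permutation test p = 0.3, where 0.1 is the smallest p that 3 against 3 allows). This share was 92.1% ± 1.46 with MW150, below every WT library, and 96.3% ± 1.26 with SMN-C3, above every SMA library (exact permutation p = 0.1 each). For MW150 the margin was small, with its highest library at 93.61% and WT 1 at 93.63%.

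Coding transcripts alone gave a different picture. The share of coding Agrn that carries Z exons was 86.8%, 80.3% and 83.0% in WT 1 to 3 and 62.9%, 62.2% and 74.1% in SMA 1 to 3. The groups did not overlap, and the means of 83.4% ± 3.27 and 66.4% ± 6.69 (SD, n = 3) differed by -17.0 percentage points (exact permutation p = 0.1, the smallest possible). With MW150 the share was 55.2%, 54.3% and 59.2%, below every SMA and WT library (exact permutation p = 0.1 in each case). With Pifithrin-α it was 59.6%, 68.3% and 75.4%, which overlapped with SMA (exact permutation p = 0.9) and lay below WT (p = 0.1). With SMN-C3 it was 80.8%, 65.3% and 70.9%, overlapping with both SMA (exact permutation p = 0.5) and WT (p = 0.2). No p is adjusted for the 7 such comparisons, and none could reach 0.05. These shares rest on low levels, since coding Agrn without Z exons was at 0.404 to 1.41 TPM in WT against 1.75 to 2.08 TPM in SMA. Agrn-203 and Agrn-206 also differ in their first exons and in the Y exon, so the share is not a measure of Z splicing alone.

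**Figure D2:**
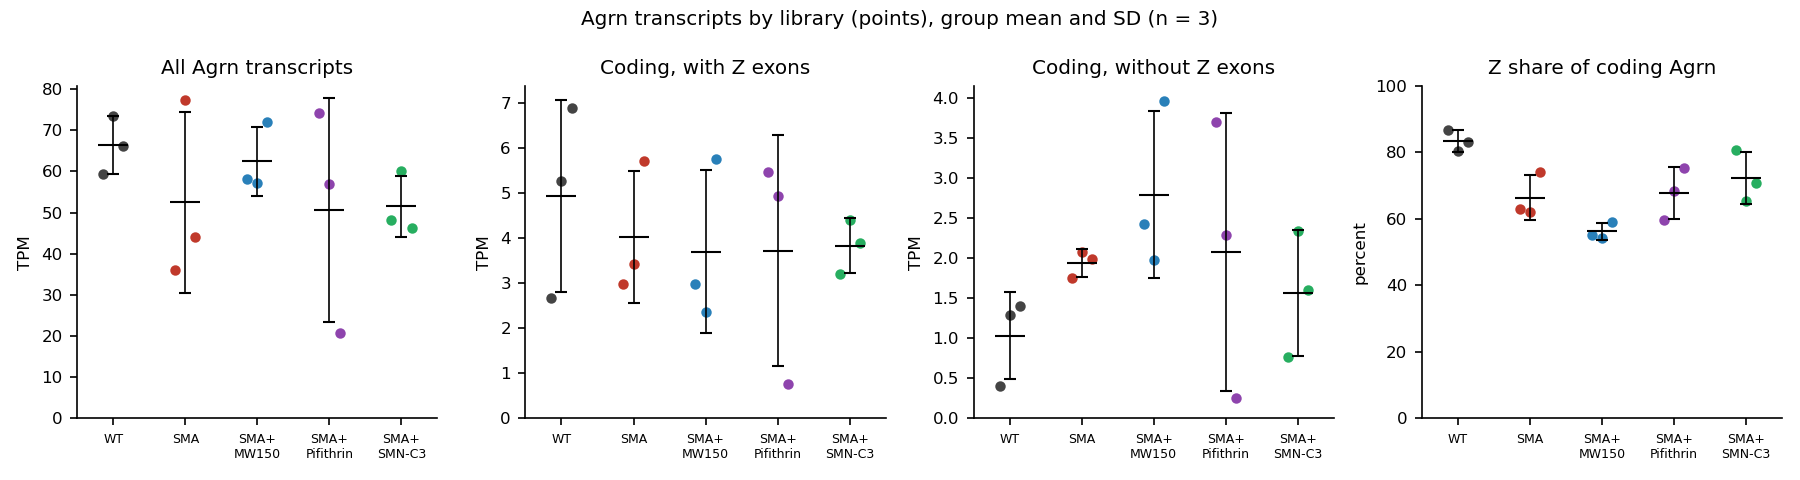
Agrn by library (points) with group mean and SD (n = 3): total Agrn, coding transcripts with Z exons and coding transcripts without Z exons (vertical axes in TPM), and the share of coding Agrn with Z exons (vertical axis in percent, 0 to 100). Total Agrn overlaps between SMA and WT, and the share in the last panel is 80.3% to 86.8% in WT and 62.2% to 74.1% in SMA.

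Lrp4, the muscle receptor of agrin, was close to the limit of detection in these neurons. It was at 0.586, 0.426 and 1.01 TPM in WT against 0.757, 0.896 and 0.260 TPM in SMA, and it reached 1 TPM in 4 of the 15 libraries, 1.69 TPM (SMA+Pifithrin-alpha 1) at most. No 2 groups compared were apart, and the log2 difference between SMA and WT was -0.04 ± 0.36 (adjusted p = 0.96). The kinase gene Musk, its muscle partner, was at 0.0659 TPM or less in all libraries and was not tested.

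Of 20 listed genes of the agrin, MuSK and synaptic matrix pathway, 15 were tested and 0 passed between SMA and WT by limma. At an unadjusted p of 0.05, 2 of the 15 passed, as did 13.5% of all tested genes. The estimate was positive for 14 and negative for 1 of them, with a median of 0.43, and positive for 12 and 11 under the median-of-ratios and quantile scalings. Dok7, the activator of MuSK, was at 4.75 ± 2.64 TPM in SMA and 3.90 ± 2.88 in WT, and Dag1, the dystroglycan gene, at 16.4 ± 3.83 and 12.1 ± 4.13. Prss12 encodes neurotrypsin, the nerve protease that cleaves agrin, and was at 40.4 ± 10.4 TPM in SMA and 31.1 ± 16.4 in WT. Lamb2, which encodes the synaptic laminin β2 chain, was at 1.65 ± 1.04 and 1.25 ± 0.728 TPM. Those 4 genes overlapped between the groups, while Rapsn, the receptor anchor, was below the filter and lower in SMA without overlap (0.298 ± 0.177 against 0.739 ± 0.112 TPM). Of the 15, 2 were higher without overlap, a share no larger than the 14.5% of all genes. They are named after their values were seen: Colq, the collagen tail of acetylcholinesterase, was at 2.91 ± 0.581 TPM in SMA and 0.398 ± 0.345 in WT (log2 1.51 ± 0.41, adjusted p = 0.17), and Chrna1, an acetylcholine receptor subunit, at 2.11 ± 0.773 and 0.689 ± 0.236 (log2 0.86 ± 0.36, adjusted p = 0.35). With SMN-C3 both were below every SMA library, Colq at 0.703 TPM and Chrna1 at 0.662 TPM on average (adjusted p = 0.40 and 0.53).

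Nrg1, the axonal ligand of ERBB receptors, was at 121.5, 64.5 and 104 TPM in WT against 65.3, 65.2 and 76.8 TPM in SMA. One WT library was below all SMA libraries, so the groups overlapped. The mean was 69.1 ± 6.68 TPM in SMA and 96.8 ± 29.2 TPM in WT, a log2 difference of -0.44 ± 0.29 (adjusted p = 0.47), which was -0.25 without WT 1 and -0.70 without WT 2. Retained-intron transcripts made up 47.8% of Nrg1 in WT 1, against 4.45% to 26.8% in the other 14 libraries, and protein-coding Nrg1 alone was at 71.6 ± 17.7 TPM in WT against 61.2 ± 7.55 TPM in SMA. With MW150 the 3 libraries, at 104, 84.7 and 76.9 TPM, were above every SMA library, though the margin to the highest SMA library was small (76.9 against 76.8 TPM). With Pifithrin-α (95.7, 59.6 and 46.5 TPM) and SMN-C3 (57.4, 58.9 and 77.1 TPM) Nrg1 overlapped with SMA.

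Nrg1 transcripts start in separate regions of the gene, which give forms with an immunoglobulin-like domain or, from an inner start, forms with a cysteine-rich domain (type III) that axons use to signal to Schwann cells. The inner start made up 24.9%, 43.6% and 44.0% of Nrg1 in WT and 55.5%, 43.8% and 50.7% in SMA. The highest WT value exceeded the lowest SMA value by little, and the groups overlapped (exact permutation p = 0.2). None of the 3 treated groups was apart from SMA in this share (exact permutation p = 0.5 with MW150, 0.2 with Pifithrin-α and 0.3 with SMN-C3). Of the 10 other listed neuregulin pathway genes 8 were tested, 3 with a positive and 5 with a negative estimate between SMA and WT. Limma called 0 of them, and at an unadjusted p of 0.05, which 13.5% of all tested genes passed, 1 gene did. That gene, Erbb4, the neuronal neuregulin receptor, was at 16.5 TPM in WT 1 but at 2.83 and 1.43 TPM in WT 2 and WT 3, against 0.26 to 2.35 TPM in SMA. Nrg2, another neuregulin, was at 9.55 ± 2.59 TPM in SMA and 9.06 ± 5.27 in WT. The sheddases Bace1 (41.5 ± 4.05 against 36.4 ± 7.85 TPM) and Adam17 (2.41 ± 1.68 against 2.52 ± 1.06 TPM) overlapped as well. The Schwann cell receptor Erbb3 stayed at or below 1.23 TPM in all 15 libraries and Erbb2 at or below 1.66 TPM, and neither was tested.

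Slit2, a secreted guidance ligand of ROBO receptors, had the largest change in size of the 9 genes between SMA and WT after Etv5. It was at 176, 72.1 and 88.7 TPM in WT against 41.1, 53.1 and 32.6 TPM in SMA. Every SMA library was below every WT library. The means were 42.3 ± 10.3 TPM and 112 ± 55.9 TPM, a log2 difference of -1.31 ± 0.41 with a 95% interval of -2.18 to -0.44, an unadjusted p of 0.0055 and an adjusted p of 0.23. Without WT 1 the difference was -0.93, and over protein-coding transcripts alone -0.62, so its size rests in part on that library and on which transcripts are counted. SMN-C3 left Slit2 at 31.7, 42.9 and 31.4 TPM, within or just below the SMA range and below all WT libraries (log2 -1.55 ± 0.41 against WT, adjusted p = 0.48). MW150 gave 93.0, 84.1 and 61.8 TPM, above every SMA library (log2 0.91 ± 0.41, unadjusted p = 0.042, adjusted p = 1). Under Pifithrin-α the values were 96.1, 78.6 and 27.4 TPM. The first 2 were above every SMA library and the third, from the library with the high mitochondrial share, was below all of them. The log2 difference from SMA was 0.51 ± 0.41 with that library and 1.05 without it.

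The separation was also seen in Slit2 coding transcripts, which were a minor part of the total. Protein-coding Slit2 was at 17.8, 17.6 and 18.8 TPM in WT 1 to 3 and 12.3, 11.06 and 11.03 TPM in SMA 1 to 3. It was at 18.4, 18.3 and 13.9 TPM with MW150, 17.9, 13.8 and 8.20 TPM with Pifithrin-α, and 10.3, 14.4 and 9.55 TPM with SMN-C3. Thus WT and MW150 libraries were all above the SMA libraries, and SMN-C3 libraries all below the WT libraries. Retained-intron Slit2 transcripts were at 146, 46.8 and 56.7 TPM in WT against 23.8, 37.4 and 15.5 TPM in SMA, with WT 1 far above the rest. Among 46 tested transcripts of the 10 genes, 0 passed between SMA and WT by limma over 41719 transcripts, where 0.221% of all did. The share of all transcripts with an unadjusted p under 0.05 is not given here, and among genes it was 13.5%. Without that share for transcripts, a count among the 46 cannot be read for or against an excess. Of the 46 transcripts, 9 had an unadjusted p under 0.05. The lowest was a Slit2 coding transcript of 9960 bases over chr5:47983138-48307733 (plus strand), at 8.98 to 16.5 TPM in WT against 2.56 to 4.14 TPM in SMA (log2 -1.66 ± 0.35, unadjusted p = 2.5e-04, adjusted p = 0.082). In the 12 Smn-/- libraries together it was at 2.56 to 8.39 TPM, so that WT was apart from every treated library too. A shorter Slit2 coding transcript of 7785 bases, which ends earlier, was at 8.24 ± 1.44 TPM in SMA and 5.47 ± 4.26 TPM in WT. The annotation places 7 other genes within Slit2, 6 of them on the same strand and among those Mir218-1, whose values are not part of the gene table.

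**Figure D3:**
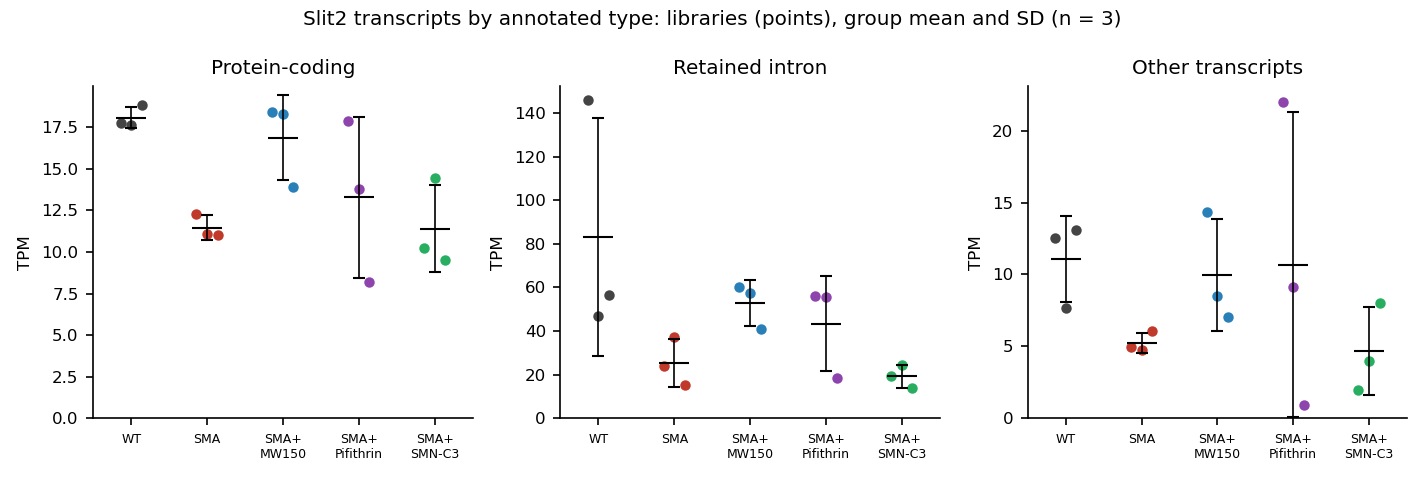
Slit2 in TPM by annotated transcript type (vertical axes, each starting at 0), with libraries as points and group mean and SD (n = 3): protein-coding, retained intron and all other types. Protein-coding Slit2 is at 17.6 to 18.8 TPM in WT against 11.03 to 12.3 TPM in SMA, and retained-intron Slit2 reaches 146 TPM in WT 1.

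The only listed pathway gene called between SMA and WT belonged to the ROBO receptor family. Robo3, the divergent ROBO receptor known from axons that cross the midline, rose in SMA. It was at 0, 0 and 0.186 TPM in WT, at 9.22, 4.33 and 4.77 TPM in SMA, and at 3.24, 3.202 and 4.43 TPM with MW150. The log2 difference between SMA and WT was 2.68 ± 0.43 (adjusted p = 0.0084), which was 0.060 when only these 2 groups were fitted and 0.082 without SMA 1. With Pifithrin-α Robo3 was at 6.16, 4.09 and 1.04 TPM, overlapping with SMA. With SMN-C3 it was at 0.558, 1.43 and 0.499 TPM, below every SMA library and above every WT library (log2 -1.93 against SMA, adjusted p = 0.14; 0.016 without the 2 high mitochondrial libraries). Of the 10 listed SLIT and ROBO genes, all tested, 1 passed and 4 were positive and 6 negative between SMA and WT. Robo1 (9.90 ± 1.59 TPM in SMA, 14.6 ± 4.32 in WT) and Robo2 (14.6 ± 3.91 and 12.3 ± 4.66), the main receptors of SLIT2 on motor axons, overlapped. Slit1 was at 5.83 to 10.96 TPM in SMA and 2.89 to 4.74 TPM in WT (log2 0.96 ± 0.47, adjusted p = 0.38), opposite in sign to Slit2. Slit3 was at 24.2 ± 7.90 TPM in SMA and 48.2 ± 15.5 TPM in WT and overlapped by 1 library (32.8 against 32.0 TPM), and all 3 MW150 libraries (70.6 to 81.0 TPM) were above both. Srgap2, an intracellular effector named after its values were seen, was at 24.1 ± 4.499 TPM in SMA and 11.5 ± 1.61 TPM in WT without overlap (adjusted p = 0.31).

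**Figure D4:**
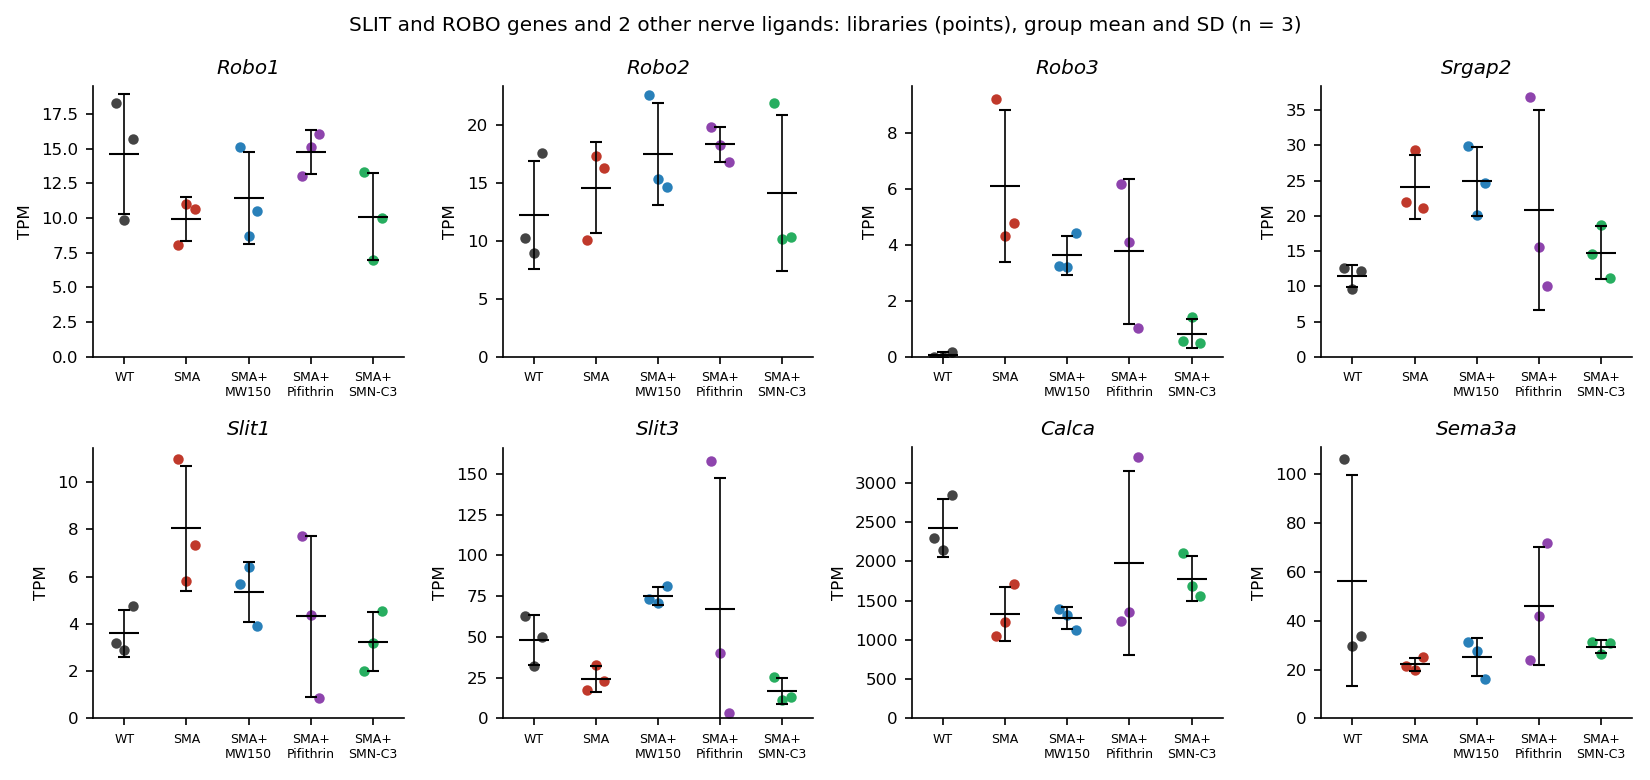
Level in TPM (vertical axes, linear, starting at 0) of SLIT and ROBO genes and of 2 other nerve ligands, Calca and Sema3a, in the 5 groups; points are libraries, the wide bar is the group mean and the whiskers are the SD (n = 3), which stop at 0 where they would go below it. Robo3 is at 0 to 0.186 TPM in WT against 4.33 to 9.22 TPM in SMA, and Calca is lower in SMA than in WT without overlap.

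Vegfa, a secreted growth factor with a neurotrophic action on motor neurons, was at 18.9, 13.1 and 13.2 TPM in WT against 10.4, 15.3 and 13.3 TPM in SMA. The groups overlapped, with a log2 difference of -0.20 ± 0.39 (adjusted p = 0.81), which was -0.034 without WT 1. With SMN-C3 it was at 8.63, 9.31 and 8.10 TPM, the narrowest range of any group and below every library of SMA (log2 -0.52 ± 0.39, adjusted p = 0.77) and of WT (-0.72 ± 0.39, adjusted p = 0.67). MW150 (11.6, 11.5 and 16.8 TPM) and Pifithrin-α (18.9, 13.1 and 4.40 TPM) overlapped with SMA. The main coding transcripts were Vegfa-201 (7.66 ± 3.69 TPM in WT, 5.11 ± 2.13 in SMA) and Vegfa-202 (5.49 ± 1.28 and 6.42 ± 0.474), which differ by an internal exon, and the share of Vegfa with that exon overlapped in SMA and WT (56.1% ± 14.7 and 46.0% ± 9.68, exact permutation p = 0.5). Of 8 tested VEGF pathway genes, 4 were positive and 4 negative between SMA and WT, and 0 were called by limma. An unadjusted p under 0.05 was found for 3 of the 8 (Vegfc, Nrp2 and Pgf) and for 13.5% of all tested genes. Vegfc was low and overlapped (0.347 ± 0.438 TPM in SMA, 1.69 ± 1.01 in WT). Nrp1, a receptor shared by VEGF-A and class 3 semaphorins, was at 45.1 ± 11.9 TPM in SMA and 50.5 ± 15.8 in WT. Its relative Nrp2 and the VEGF family ligand Pgf, both named after their values were seen, did not overlap. Nrp2 was lower in SMA (24.7 ± 12.8 against 45.1 ± 7.23 TPM, adjusted p = 0.27) and Pgf higher (48.8 ± 5.36 against 27.8 ± 18.6 TPM, adjusted p = 0.36). Among all tested genes, 3.81% were lower and 14.5% higher without overlap. The vascular receptors Kdr (0.354 to 5.09 TPM over all libraries) and Flt1 (0.520 to 5.65 TPM) were low throughout.

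Fgfbp1, a muscle-derived carrier that frees fibroblast growth factors from the matrix, was listed at 0 in 12 of the 15 libraries. The other 3 were SMA 2 at 0.127 TPM, SMA 3 at 0.652 TPM and SMA+MW150 2 at 0.602 TPM. It passed no filter and was not tested, and at this level an absence cannot be read from the files.

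Cntn1 encodes contactin 1, an adhesion molecule of axons and paranodes, and was the most abundant of the 10 genes in every group by its mean. It was at 153, 92.4 and 105 TPM in WT against 96.9, 75.7 and 73.9 TPM in SMA. One SMA library lay within the WT range, and the log2 difference was -0.48 ± 0.25 (unadjusted p = 0.074, adjusted p = 0.40), which was -0.27 without WT 1. With Pifithrin-α it was at 105, 128 and 117 TPM, above every SMA library (log2 0.51 ± 0.25, adjusted p = 0.46). MW150 (121.9, 91.4 and 91.0 TPM) and SMN-C3 (104, 69.1 and 95.8 TPM) overlapped with SMA. The 5646-base coding transcript of Cntn1 reached 109 TPM in WT 1 and 47.3 TPM in SMA+Pifithrin-alpha 3, the libraries with the highest mitochondrial shares, and was at 0.187 to 25.9 TPM in the other 13. The 5671-base coding transcript, which starts further upstream, was at 71.1 ± 11.3 TPM in SMA and 73.9 ± 29.8 TPM in WT. Of the other 11 contactin partners and relatives, all tested, 5 were positive and 6 negative between SMA and WT, and 1 and 10 under the median-of-ratios scaling, with 0 called by limma in the main fit (0 at an unadjusted p of 0.05). Cntnap1, the paranodal partner of contactin 1, was at 9.90 ± 2.13 TPM in SMA and 9.002 ± 2.02 in WT. Cntnap2 (29.7 ± 1.33 and 36.2 ± 10.8) and Nfasc (30.0 ± 17.1 and 21.9 ± 3.83), both also of the nodal region, overlapped.

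The ETV factors are transcription factors of the PEA3 group that motor neurons and muscle afferents switch on in response to target signals, Etv4 and Etv5 also being common targets of fibroblast growth factor signalling. Etv5 was at 1.29, 4.95 and 8.07 TPM in WT against 11.9, 14.6 and 11.6 TPM in SMA. Every SMA library was above every WT library, and the means were 12.7 ± 1.69 and 4.77 ± 3.39 TPM. The log2 difference of 1.45 ± 0.44 had a 95% interval of 0.52 to 2.39, an unadjusted p of 0.0045 and an adjusted p of 0.22, and it was 0.89 without WT 1, where Etv5 was lowest. Etv4 was at 1.06, 4.80 and 6.50 TPM in WT against 6.81, 10.2 and 7.33 TPM in SMA, again without overlap. Its log2 difference was 1.01 ± 0.50 (unadjusted p = 0.063, adjusted p = 0.38), which was 0.45 without WT 1 and 0.23 when the mitochondrial share entered the model. Etv1 did not share this pattern, at 21.3, 14.6 and 13.1 TPM in WT against 3.22, 14.7 and 18.8 TPM in SMA (log2 -0.63 ± 0.53, adjusted p = 0.55). Its coding transcript of 6576 bases was lower in SMA (1.27 to 3.81 TPM) than in WT (4.62 to 13.6 TPM), with an unadjusted p of 0.0073 and an adjusted p of 0.28.

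In the treated groups Etv5 was at 11.1, 8.90 and 10.4 TPM with MW150, 8.35, 8.49 and 3.39 TPM with Pifithrin-α, and 5.88, 3.50 and 4.88 TPM with SMN-C3. All 9 of these libraries were below all 3 SMA libraries. SMN-C3 had the lowest mean of the treated groups, 4.75 ± 1.19 TPM. The WT mean was 4.77 ± 3.39 TPM, but it includes WT 1 at 1.29 TPM, and WT 2 and WT 3 were at 4.95 and 8.07 TPM. The log2 difference of Etv5 between SMN-C3 and SMA was -1.27 ± 0.44 (unadjusted p = 0.011, adjusted p = 0.44). Its adjusted p was 0.034 without the 2 high mitochondrial libraries and 0.021 with array weights. For Etv4 the values were 7.996, 8.57 and 10.6 TPM with MW150, 5.25, 4.41 and 0.808 TPM with Pifithrin-α, and 2.49, 4.27 and 5.55 TPM with SMN-C3. Pifithrin-α (log2 -1.19 ± 0.50, adjusted p = 0.46) and SMN-C3 (-0.86 ± 0.50, adjusted p = 0.68) were below every SMA library, and MW150 overlapped with SMA. Without SMA+Pifithrin-alpha 3 the Pifithrin-α difference was -0.63 for Etv4 and -0.53 for Etv5 (from -0.90), and with the mitochondrial share in the model -0.34 and -0.30. Etv1 was at 13.9, 14.7 and 9.39 TPM with MW150, 19.2, 12.8 and 8.68 TPM with Pifithrin-α, and 2.74, 5.15 and 11.4 TPM with SMN-C3. The last 3 were below all WT libraries (log2 -1.37 ± 0.53, unadjusted p = 0.019, adjusted p = 0.66).

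Of 17 tested genes of the fibroblast growth factor and PEA3 list, 10 were positive and 7 negative between SMA and WT, with 0 called by limma and 0 at an unadjusted p of 0.05. Under median-of-ratios scaling 7 were positive and 10 negative, so the list had no stable direction. The feedback inhibitor Spry4 was at 6.48 ± 0.663 TPM in SMA and 3.90 ± 1.26 in WT without overlap (adjusted p = 0.44). Dusp6, a phosphatase of the same feedback loop, was at 11.9 ± 1.95 TPM in SMA and 7.28 ± 4.003 in WT and overlapped (adjusted p = 0.41). The receptor Fgfr1 was at 17.1 ± 1.08 and 17.1 ± 1.71 TPM. Sema3e, a ligand under PEA3 control in motor pools, was at 1.64 ± 0.554 TPM in SMA and 2.42 ± 0.733 in WT. With SMN-C3, Spry4 (5.07 TPM on average) and Dusp6 (7.97 TPM) were below every SMA library, and neither was called. For Dusp6 the margin was small, with the highest SMN-C3 library at 10.2 TPM and the lowest SMA library at 10.3 TPM. Of the 17 genes, 4 were lower with SMN-C3 without overlap, as were 18.2% of all genes, so this count is near the background.

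Most microglia, astrocyte and oligodendrocyte markers had positive estimates between SMA and WT. Of all 15425 tested genes, 10262 were positive too, and 14.5% were higher without overlap. All 10 microglia markers were positive and 6 did not overlap, C1qc was called (25.1 ± 5.31 TPM in SMA, 6.33 ± 2.36 in WT, adjusted p = 0.014), and their summed level was 150 to 175 TPM in SMA against 42.3 to 80.4 TPM in WT, 111 to 145 with MW150, 63.4 to 118 with Pifithrin-α and 80.2 to 104 with SMN-C3. All 9 astrocyte markers were positive too (7 of 9 under median-of-ratios scaling), with sums of 1357 to 1853 TPM in SMA, 752 to 1468 in WT, 1429 to 1783 with MW150, 754 to 1480 with Pifithrin-α and 1349 to 1564 with SMN-C3. Oligodendrocyte marker sums overlapped (799 to 4280 TPM in SMA, 714 to 2124 in WT). Vascular markers had no common direction. Of the 9 tested, 5 were positive and 4 negative (3 and 6 under median-of-ratios scaling), and 0 were apart. No microglia, astrocyte or oligodendrocyte marker was at 0 in any library. Of 8 Schwann cell and muscle markers 4 were tested, all 4 with a positive estimate (3 of 4 under quantile normalization), and 2 were higher in SMA without overlap: Pmp22, also expressed outside Schwann cells (129 ± 74.8 against 42.3 ± 2.91 TPM, adjusted p = 0.15), and Acta1 (6.60 ± 2.19 against 2.90 ± 0.197 TPM, adjusted p = 0.30). The muscle genes Myog and Myh3 were at 0 in 12 libraries each. Microglia sums and Etv5 were thus both higher in SMA than in WT and in the 3 treated groups, and their part in the Etv4, Etv5, Slit2 and Robo3 differences was not tested.

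The 3 treatments were each compared with the same SMA libraries, so these comparisons are not independent, and the compounds differ in target and dose. No comparison called any of the 9 genes. The shares of all genes called against SMA were 0.00648% with MW150, 0.00648% with Pifithrin-α and 0.0648% with SMN-C3, and 1 of the 9 genes in each had an unadjusted p under 0.05 (Slit2, Etv4 and Etv5). Of all genes 1.9%, 10.7% and 8.53% did, so that 1 of 9 was about the background share with Pifithrin-α and SMN-C3. With array weights the count was 0 with MW150, 3 with Pifithrin-α (Etv4, Cntn1 and Slit2) and 1 with SMN-C3 (Etv5). That fit called 5155 of all genes (33.4%) with Pifithrin-α and 331 (2.15%) with SMN-C3. With MW150, 2 of the 9 were higher (Nrg1 and Slit2) and 1 lower (Etv5) than SMA without overlap, where 7.53% and 3.41% of all genes were. Under Pifithrin-α, 1 was higher (Cntn1) and 2 lower (Etv4 and Etv5), against 5.53% and 9.76%. Leaving out SMA+Pifithrin-alpha 3 added Slit2 to the higher genes (2 and 2, against 11% and 10.9% of all genes). With SMN-C3, 0 were higher and 3 lower (Etv4, Etv5 and Vegfa), against 2.52% and 18.2%, and at such a background share 3 of 9 lower genes say little about these genes in particular. The medians of the 9 genes were 0.29, -0.10 and -0.24, those of all genes 0.06, -0.22 and -0.23.

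**Figure D5:**
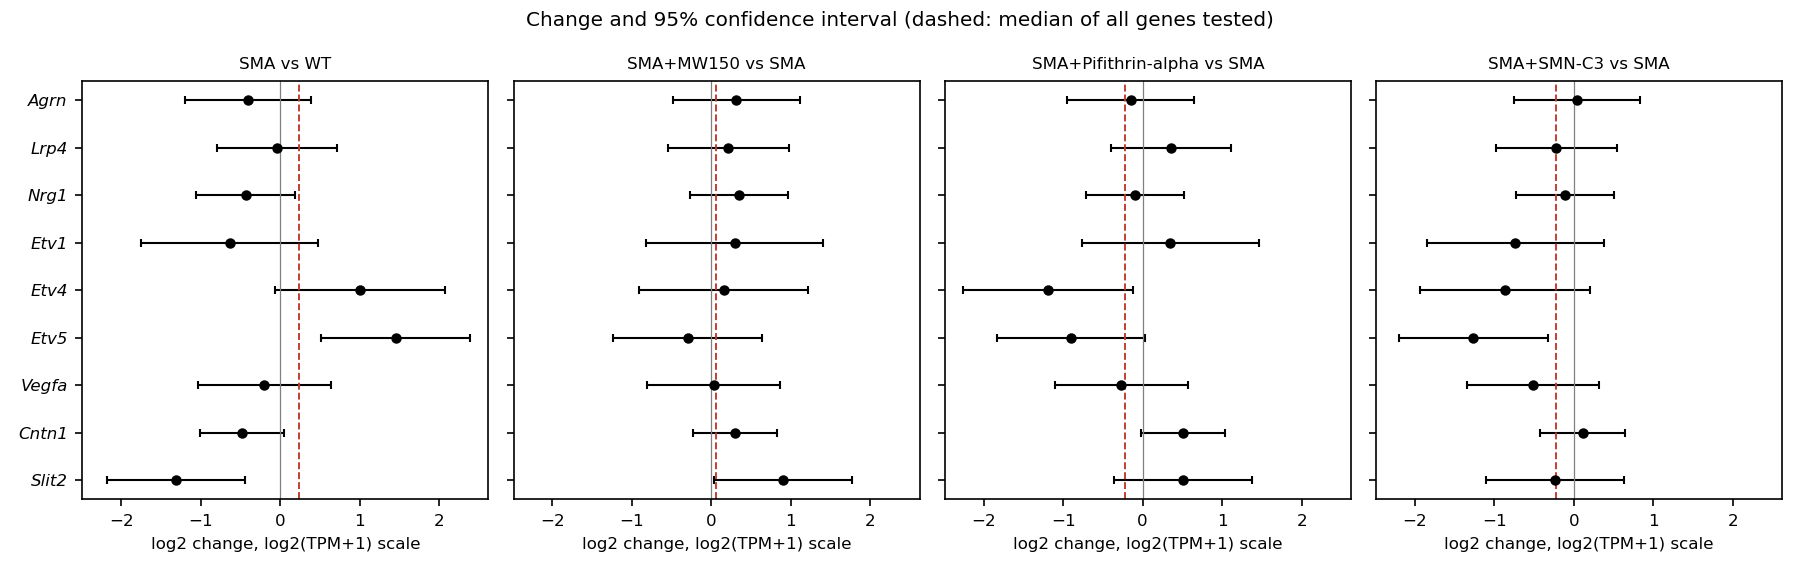
Difference on the log2(TPM+1) scale (horizontal axis) of the 9 tested genes for SMA against WT and for each treatment against SMA; points are limma estimates, bars their 95% confidence intervals, and the dashed line is the median of all genes tested. Etv5 (1.45) and Slit2 (-1.31) have intervals clear of 0 in SMA against WT, as do Slit2 (0.91) with MW150, Etv4 (-1.19) with Pifithrin-α and Etv5 (-1.27) with SMN-C3 against SMA.

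Against WT, 0 of the 9 genes were called with MW150, with Pifithrin-α or with SMN-C3, where 0.143%, 0.117% and 0.0194% of all genes were, and 2, 0 and 2 had an unadjusted p under 0.05, against 10.2%, 5.78% and 7.31% of all genes. Array weights called Slit2 with SMN-C3. MW150 libraries remained above WT for Etv4 (log2 1.16 ± 0.50) and Etv5 (1.15 ± 0.44) without overlap, with adjusted p of 0.48 and 0.45. WT 1 was the lowest WT library for both, at 1.06 and 1.29 TPM, and these differences are not given without it. Etv4 and Etv5 are 2 of 9 genes, where 17.9% of all genes were higher without overlap. Between treatments, 0 of the 9 were called in MW150 against Pifithrin-α (0% of all genes, 1 of the 9 at an unadjusted p of 0.05), in MW150 against SMN-C3 (0.00648%, 2 of the 9) and in Pifithrin-α against SMN-C3 (0%, 0 of the 9). Of all genes 8.99%, 11.5% and 7.15% had an unadjusted p under 0.05 in these comparisons. Slit2 was higher with MW150 than with SMN-C3 in all libraries, as were 27.5% of all genes (log2 1.14 ± 0.41, adjusted p = 0.32), and this became a call when only those 2 groups were fitted (0.014) or the 2 high mitochondrial libraries were left out (0.016). The F test of limma over the 5 groups called 0 of the 9 genes and 0.22% of all genes, with the lowest adjusted p for Slit2 (0.39) and Etv5 (0.46).

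Other ligands of motor nerves gave a mixed picture. Of 22 listed, 19 were tested, and 11 were positive and 8 negative between SMA and WT (7 and 12 under median-of-ratios scaling). Limma called 0 of them, and 4 had an unadjusted p under 0.05, as did 13.5% of all tested genes. Lower in SMA without overlap were 2 of the 19, Calca and Sema3a, and 3.81% of all tested genes. Calca, whose peptide CGRP is released at the junction, was at 2296, 2140 and 2842 TPM in WT against 1045, 1223 and 1714 TPM in SMA. It was lower in SMA without overlap (log2 -0.89 ± 0.32, adjusted p = 0.30). Sema3a, a chemorepellent named after its values were seen, was at 22.1 ± 2.70 TPM in SMA and 56.5 ± 43.2 TPM in WT, where WT 1 alone reached 106 TPM. Sirpa (22.5 ± 1.91 and 18.4 ± 4.39), a presynaptic organizer, and Bdnf (13.5 ± 8.01 and 7.24 ± 1.37), a neurotrophin, overlapped.

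By the level of all their transcripts together, the genes fell into an abundant set and a low set. In WT, Cntn1, Slit2, Nrg1 and Agrn had means of 117, 112, 96.8 and 66.4 TPM, and each overlapped with the next. Agrn was then apart from Etv1 (16.3 TPM), which overlapped with Vegfa (15.1 TPM). Etv5 (4.77) and Etv4 (4.12 TPM) overlapped, and Lrp4 (0.674 TPM) was apart from both. In SMA the order of means was Cntn1, Nrg1, Agrn, Slit2, with Slit2 moving from the second to the fourth place, then Vegfa, Etv5, Etv1 and Etv4, whose neighbours all overlapped. By its total, Agrn exceeded the mean level of 82.9% of all tested genes, Cntn1 of 89.5% and Etv4 of 37.9%. Over protein-coding transcripts alone the order was different. The WT means were then 116 TPM for Cntn1, 71.6 for Nrg1, 18.1 for Slit2, 13.8 for Etv1, 13.2 for Vegfa and 5.97 for Agrn.

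Across the 15 libraries, the genes whose log2(TPM+1) was most like that of Agrn were Nrxn2 (Pearson r = 0.949), Elavl3 (0.9245), Pkp4 (0.922), Trio (0.922) and Dock10 (0.920). Among the 9 genes, the closest pairs were Etv4 with Etv5 (r = 0.84) and Agrn with Vegfa (r = 0.82), and Etv4 with Cntn1 was the most negative (r = -0.56). These values describe libraries that share their mitochondrial share and composition, and SMA+Pifithrin-alpha 3 was the lowest of the 15 for Agrn, Vegfa, Slit2, Nrg1 and Etv4 alike.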

How the data were processed

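Per the labels, RNA of laser-captured motor neurons was amplified from poly(A) RNA and sequenced with paired ends. The authors deposited TPM values per gene and per transcript for each library. Per the submitters' processing notes, kallisto 0.44.0, DESeq2 and the builds GRCm38.p6 and mm10 were used. The annotation release is not given in the sources used here. Of 118489 transcripts, 116728 (98.5%) matched GENCODE M21 (GRCm38), from which coordinates, transcript types and sequences were taken.

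Genes reaching 1 TPM in 3 or more libraries were compared on log2(TPM+1), which understates the change of low genes, with limma 3.58.1 (trend on the mean) in R 4.3.3. The model held a mean for each group over the 15 libraries, 10 pairs of groups and an F test were taken, and Benjamini-Hochberg adjustment ran over all 15425 genes, with calls at 0.05. Transcripts were fitted likewise. Shares were compared by exact two-sided permutation. The procedure was tested on simulated data. TPM keeps no counts, so no count model was run. Limma p-values rest on the spread between the 3 biological replicates of a group, pooled over the 5 groups and moderated across genes. They do not measure the spread of the groups compared alone. The 10 genes, the gene lists and the tests were chosen with earlier results of these data known. Named are the 10 genes, partner genes chosen by role, any listed gene called, and the 5 genes most like Agrn; others are said to be chosen after their values were seen. Alternatives covered pseudocount, filter, scaling, weights, a mitochondrial term, trend, replicate block, the groups fitted and single libraries left out. Python 3.11.15, pandas 2.3.3 and matplotlib 3.10.9 made tables and figures.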

Additional observations from a re-analysis of the deposited data

How the results depend on the processing

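In the main fit and with the replicate block, 0 of the 9 genes were called in any comparison, and the same held when each library was left out. Same-numbered libraries did not deviate together (30 correlations between -0.34 and 0.29, 4 above 0.1). The labels do not say whether the numbers pair the samples, and these correlations cannot exclude it. Array weights called 3 genes for Pifithrin-α against SMA, 1 for SMN-C3 against SMA, 1 for SMN-C3 against WT, 3 for MW150 against Pifithrin-α, 3 for MW150 against SMN-C3, 4 for Pifithrin-α against SMN-C3 and 5 by the F test, where 33.4%, 2.15%, 0.382%, 44.2%, 11.3%, 37.5% and 64% of all genes were called in that order; the weights did not reach their convergence tolerance. Without WT 1 and SMA+Pifithrin-alpha 3, 1 gene each was called for SMN-C3 against SMA, MW150 against SMN-C3 and the F test (1.09%, 2.46% and 0.86% of all genes), and fitting only the groups compared called 1 for MW150 against SMN-C3 (4.8%). This omission and the protein-coding restriction were chosen after seeing the data. Directions reversed as follows, on the log2 scale, and the cause was not tested. Protein-coding transcripts alone gave 0.060 for Agrn between SMA and WT, -0.015 for Etv1, -0.10 for Etv4 and -0.0038 for Vegfa with MW150, and -0.12 for Agrn with SMN-C3, each against SMA. Median-of-ratios scaling gave -0.047 for Vegfa with MW150, 0.10 for Agrn and 0.16 for Nrg1 with Pifithrin-α, and 0.16 for Nrg1 and 0.022 for Slit2 with SMN-C3. Quantile normalization gave -0.090 for Vegfa with MW150, 0.044 for Agrn and 0.068 for Nrg1 with Pifithrin-α, and 0.21 for Lrp4 and 0.017 for Nrg1 with SMN-C3. With Pifithrin-α, array weights gave 0.22 for Agrn and 0.013 for Vegfa, the mitochondrial term 0.24 for Agrn, and the omission of both libraries 0.38 for Agrn, 0.13 for Nrg1 and 0.28 for Vegfa. Leaving out single libraries gave, between SMA and WT, -0.15 to 0.14 for Lrp4 and -1.06 to 0.055 for Etv1. With MW150 the ranges were -0.39 to 0.72 for Etv1 and -0.14 to 0.14 for Vegfa. With Pifithrin-α they were -0.51 to 0.38 for Agrn, -0.38 to 0.13 for Nrg1, -0.34 to 0.77 for Etv1 and -0.66 to 0.28 for Vegfa, and with SMN-C3 -0.19 to 0.35 for Agrn and -0.0035 to 0.29 for Cntn1. Of the single-gene values under alternatives, 655 kept direction and side of the threshold and 36 reversed. Depth is not stated, which limits the low genes Lrp4 and Fgfbp1 most.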
